A study of Mus musculus with 3 samples.

Results

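Counts of the endoplasmic reticulum (ER) chaperones Hspa5, Hsp90b1, Calr, Canx, P4hb, Pdia3, Pdia4 and Pdia6 were followed through early reprogramming of mouse embryonic fibroblasts (MEFs). The genes were taken by name and make up 8 of the 50507 rows of the count table. Of these, 7 passed the filter on low counts and stood among the 3013 genes tested. Pdia4 did not pass, and its counts are described without a call.

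BL6 wild-type MEFs at passage 2 were transduced in all groups with a doxycycline-inducible lentiviral cassette of Oct4, Sox2, Klf4 and c-Myc and with its activator rtTA, and were induced in medium with 2 µg/mL doxycycline, 3 µM of the GSK3 inhibitor chiron, 0.25 µM of the TGF-beta inhibitor Alk5i, 50 µg/mL ascorbic acid and LIF. In the time course, cells were replated but not transfected and were sampled on each of 7 days, from day 0 (Day00) to day 6 (Day06). In the screen, cells were transfected on the day before induction with 40 nM of a pool of siRNAs against 1 of 33 genes or with a non-targeting siRNA (nt), or were labelled Mock, and RNA was taken on day 6. CEL-Seq2, which counts each captured transcript 3′ end once through a molecular identifier, gave 21 time course, 3 nt, 5 Mock and 98 siRNA libraries. Each condition had 3 replicates of 1 library, apart from siMtf1 with 1 replicate fewer and Mock, whose 5 libraries came from 3 replicates. The condition of a library was read from its column name. The libraries of a replicate share 1 sequenced pool, and by the study's account the siRNA transfections were made in triplicate. Whether replicates came from separate animals is not given in the sources used here, so the p-values measure the spread between these cultures and libraries, and not between animals. A library is a culture in which infected and uninfected cells can be mixed, so that fewer cells of a type and less RNA per cell cannot be told apart.

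Proteins that enter the secretory pathway fold in the ER lumen with the help of chaperones that are retained there by a C-terminal retrieval signal or by a membrane anchor. When unfolded proteins accumulate, the sensors ATF6, IRE1 and PERK start the unfolded protein response, and ATF6 and XBP1 raise transcription of many chaperone genes through the ER stress response element (ERSE). Fibroblasts secrete large amounts of collagen and other matrix proteins, and keep a well-developed rough ER.

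The element is shown here because it links several of these genes to one regulatory sequence. It was searched as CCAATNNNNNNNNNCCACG on both strands of RefSeq promoter windows on GRCm38.p6, from 250 bases before to 50 bases after each start. It was found in 39 of 32851 windows (0.119%), and by symbol in 37 of 27025 genes (0.137%). Of the 8 chaperone genes, 5 held a match, Hsp90b1 with 2, and all 6 matches lay before the RefSeq start. The RefSeq start of Hspa5 lies inside the gene bounds of the annotation given further on, and so does its match. Each match is printed 5′ to 3′ on the strand of its gene with the element in capitals. In Calr and in the downstream match of Hsp90b1 the element runs on the opposite strand, and reads CGTGG first.
Hspa5, chr2:34772014-34772054, plus strand: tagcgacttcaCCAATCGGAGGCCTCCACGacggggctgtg
Hsp90b1, chr10:86705627-86705667, minus strand: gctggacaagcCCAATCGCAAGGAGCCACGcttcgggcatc
Hsp90b1, chr10:86705522-86705562, minus strand: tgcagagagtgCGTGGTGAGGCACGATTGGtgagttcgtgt
Calr, chr8:84847064-84847104, minus strand: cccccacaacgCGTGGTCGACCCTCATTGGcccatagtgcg
Canx, chr11:50325789-50325829, minus strand: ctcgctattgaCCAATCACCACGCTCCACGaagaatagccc
Pdia6, chr12:17266480-17266520, plus strand: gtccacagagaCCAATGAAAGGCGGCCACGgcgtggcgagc
The capitals began 65 bases before the RefSeq start in Hspa5, 212 and 107 in Hsp90b1, 162 in Calr, 145 in Canx and 98 in Pdia6. P4hb, Pdia3 and Pdia4 had no match in this window. The shorter CCAAT, with which each element begins, was present in all 8 windows but also in 37.4% of all windows. A match is a description of these letters and does not show that a factor binds there.

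Hspa5 (chr2:34771970-34777547, GRCm38) encodes BiP, the ER Hsp70 that binds unfolded chains and keeps the stress sensors inactive. Hsp90b1 (chr10:86690209-86705509) encodes GRP94, the ER Hsp90, which matures integrins and Toll-like receptors. Calr (chr8:84841850-84846934) and Canx (chr11:50293961-50325673) encode calreticulin and calnexin, the soluble and the membrane-bound lectin chaperones of glycoproteins. P4hb (chr11:120560298-120573253) encodes protein disulfide isomerase, which is also a subunit of collagen prolyl 4-hydroxylase. Pdia3 (chr2:121413775-121438687) encodes the disulfide isomerase that works with calreticulin and calnexin, and Pdia4 (chr6:47796141-47813430) and Pdia6 (chr12:17266545-17284770) encode further disulfide isomerases. All 8 genes are annotated as protein coding. The end of Pdia6 overlaps Atp6v1c2 on the opposite strand, and 495 bases of the Calr sequence are 92.5% identical to the pseudogene Calr-ps, which had 400 counts against 2899 for Calr. Hsp90b1 shares 273 identical bases with 1810014B01Rik, a pseudogene on the opposite strand of its locus that had 33 counts and does not overlap the end of Hsp90b1. No other gene, those that overlap them included, matched the last 300 bases of the 8 genes, near which CEL-Seq2 reads lie, over at least 60 bases at 95% identity or more. Calr was also analysed with Calr-ps added.

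Total counts ran from 29656 to 235292 per library. Total Hsp90b1 counts over the libraries were 8209, those of Canx 5522, of Hspa5 5197, of Pdia3 3887, of Calr 2899, of Pdia6 2123 and of P4hb 866. Pdia4 had 200 counts and none in 40 libraries. Of the marker lists, the 8 fibroblast markers summed to 5686 to 7136 CPM on Day00 and were detected in each condition compared here. Summed epithelial markers ranged from 0 to 253 CPM and summed pluripotency markers from 0 to 167 CPM over these conditions, and none of either list reached the count filter. Macrophage and blood markers summed to a mean of 166 CPM on Day00 and 44.8 CPM on Day06. Ptprc, Csf1r and Tyrobp were at 0 on Day00 and Cd68, Csf1r, Adgre1 and Tyrobp on Day06, and the 1 tested marker of this list was called lower on Day01, Day05 and Day06. Endothelial markers summed to at most 56.1 CPM, with Cdh5 at 0 in each of these conditions, and neural markers summed to 35.0 to 267 CPM. Counts of the siRNA targets in nt and Mock ran from 0 to 260, the latter for Set. Cbx7, Phf1 and Tdrd7 had 0 counts in their own siRNA and in nt and Mock, and so could not be lower. Of all 33 targets, 17 had a lower mean CPM in their own siRNA than in nt and Mock. Wdr5 had 7 counts in the libraries labelled siWdr5 (mean 29.3 CPM) and 15 in the nt and Mock libraries (33.2 CPM), Ncor1 had 12 in siNcor1 and 41 in the controls (64.8 and 95.6 CPM), and Pou5f1 had 0 in siPou5f1 and 9 in the controls. A knockdown of Wdr5 on day 6 was thus not detectable at this depth.

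CPM relate the counts of a gene to all counts of tested genes in its library, after TMM scaling, and because each molecule is counted once at its 3′ end, levels can be set side by side without a length correction. On Day00, Hsp90b1 was the highest at 1496 ± 223 CPM (SD, n = 3). Hspa5 followed at 1124 ± 139 CPM, then Canx at 917 ± 189, Pdia3 at 878 ± 207 and Calr at 824 ± 204 CPM. Neighbours among these 5 overlapped between libraries. Pdia6 stood below all of them at 542 ± 17.97 CPM, and P4hb was lower again at 170 ± 55.6 CPM. Pdia4 had 65.5 ± 35.2 CPM, from 2, 5 and 6 counts, and overlapped with P4hb. By level among the 3013 genes, Hsp90b1 had rank 42, Hspa5 rank 70 and P4hb rank 1031 on Day00. By Day06 the ranks were 133 for Hsp90b1 and 236 for Hspa5. In nt the order was Hsp90b1, Hspa5, Canx, Pdia3, Pdia6, Calr, P4hb and Pdia4, so that Calr had moved below Pdia6, although the libraries of these 2 genes overlapped.

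The first question was how the chaperones moved as fibroblasts entered reprogramming. Within 1 day of induction 5 of the 7 tested genes fell, against 6.8% of all tested genes that fell. Hspa5 stood at 1252, 1143 and 977 CPM on Day00 and at 688, 635 and 410 CPM on Day01. The days did not overlap, and the log2 fold change was -0.997 ± 0.20 (SE; adjusted p = 8.18e-05, edgeR quasi-likelihood test with Benjamini-Hochberg adjustment, as for all adjusted p that follow). Hsp90b1 was at 1683, 1249 and 1556 CPM on Day00 and at 802, 672 and 945 CPM on Day01, a log2 fold change of -0.89 ± 0.19 (adjusted p = 0.000182). Calr was at 903, 593 and 977 CPM on Day00 and at 436, 367 and 387 CPM on Day01. Its log2 fold change was -1.09 ± 0.23 (adjusted p = 0.000175). The largest drop was that of Pdia6, from 554, 551 and 521 CPM to 229, 305 and 68.3 CPM (log2 fold change -1.52 ± 0.30, adjusted p = 4.16e-05). Pdia3 fell from 657, 911 and 1068 CPM to 367, 452 and 467 CPM (-1.04 ± 0.23, adjusted p = 0.000238). In all 5 genes every Day01 library lay below every Day00 library, and the share of all tested genes so separated is not given for these days. Canx, at 940, 660 and 843 CPM on Day01, overlapped with Day00 and had a log2 fold change of -0.25 ± 0.20 (adjusted p = 0.502). P4hb had -0.88 ± 0.46 (adjusted p = 0.242). Pdia4 had 1 count in the Day01 libraries against 13 on Day00. With limma on the deposited log2 values, adjusted over 10568 genes, Pdia6 was called (adjusted p = 0.0294) and the other 4 were not (adjusted p from 0.182 to 0.345). Each of the 5 calls held without any 1 replicate, and Calr with Calr-ps fell by 1.14 (adjusted p = 8.87e-05).

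**Figure D1:**
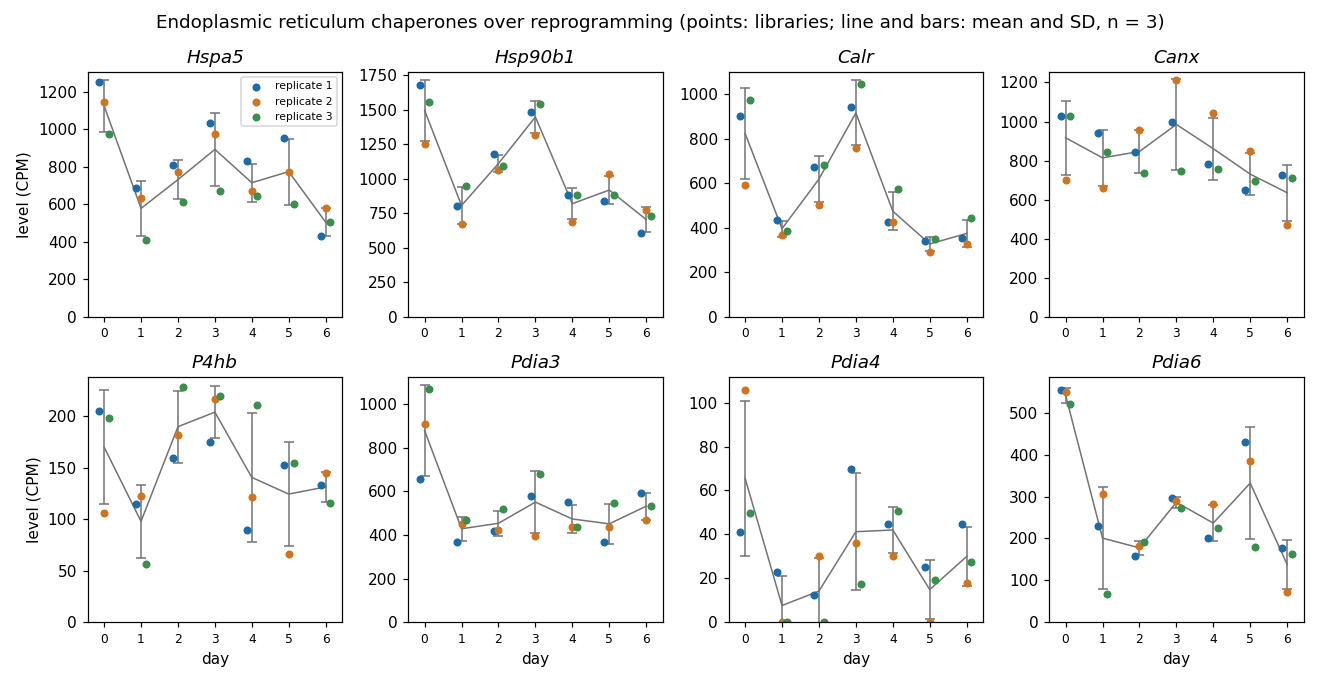
Levels of the 8 genes in CPM (y axis, linear from 0) in each library on days 0 to 6 (x axis); points are libraries coloured by replicate, and the line and bars give the mean and SD of 3 libraries. Hspa5, Hsp90b1 and Calr fell on day 1, were higher again on day 3 and lower on day 6, while the daily means of Pdia3 from day 1 on lay between 429 and 551 CPM.

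The summed level was higher on Day02 and Day03 than on Day01 and then fell again, to a mean below that of Day01 on Day06. The 8 genes together made up 6017 ± 572 CPM on Day00, 3330 ± 234 on Day01, 4143 ± 95.6 on Day02 and 5324 ± 220 on Day03, and they came down again to 3763 ± 60.7 on Day04, 3673 ± 216 on Day05 and 3050 ± 185 on Day06. On Day02, Hspa5, Pdia3 and Pdia6 were called lower than on Day00 (3 of 7, against 6.44% of all tested genes), and on Day03 only Pdia3 and Pdia6 were (2 of 7, against 5.81%). Calr reached 944, 759 and 1047 CPM on Day03, with a log2 fold change against Day00 of 0.14 ± 0.20 (adjusted p = 0.749). Hsp90b1 reached 1486, 1319 and 1539 CPM, a log2 fold change of -0.05 ± 0.18 (adjusted p = 0.902). Pdia3 stood at 577, 398 and 677 CPM (-0.67 ± 0.21, adjusted p = 0.0232) and Pdia6 at 297, 289 and 273 CPM (-0.92 ± 0.27, adjusted p = 0.0128). The Pdia3 call was lost without replicate 2 or 3 (adjusted p = 0.329 and 0.141). That of Pdia6 was lost without replicate 1, 2 or 3 (0.0614, 0.0966 and 0.105), and without the replicate block both were lost (adjusted p = 0.105 for Pdia3 and 0.0759 for Pdia6). On Day02 the Hspa5 call was lost without any 1 replicate (adjusted p from 0.0877 to 0.157) and without the replicate block (0.148), while RLE (relative log expression) factors gave 5 calls and limma 1. On Day03 limma gave 0.

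Day03 was set against Day01 and Day06 against Day03 after the levels by day had been seen. Between Day01 and Day03, 3 of 7 rose, against 8.3% of tested genes. Calr rose by 1.23 ± 0.23 on the log2 scale (adjusted p = 7.85e-06) and Hsp90b1 by 0.85 ± 0.19 (adjusted p = 0.000321), and in both every Day03 library lay above every Day01 library. For this pair of days, too, the share of all tested genes so separated is not given. Scaled to total counts, Hsp90b1 had 0.47 (adjusted p = 0.0597), and limma called none of the 7. Hspa5 went up by 0.63 ± 0.21 (adjusted p = 0.0223), to 1032, 976 and 669 CPM, and its days overlapped. That call was lost without any 1 replicate (adjusted p from 0.125 to 0.141), without the replicate block (0.125) and under scaling to total counts, where the log2 fold change was 0.25 (adjusted p = 0.434). P4hb, with 175, 217 and 220 CPM on Day03 and 115, 122 and 56.9 CPM on Day01, had 1.10 ± 0.44 (adjusted p = 0.0779). From Day03 to Day06, 4 of 7 fell, against 8% of tested genes. They were Calr (-1.27 ± 0.22, adjusted p = 1.83e-06), Hsp90b1 (-1.05 ± 0.19, adjusted p = 4.73e-06), Hspa5 (-0.75 ± 0.20, adjusted p = 0.00424) and Pdia6 (-0.93 ± 0.33, adjusted p = 0.0376). Scaled to total counts, Hspa5 had an adjusted p of 0.0533 and Pdia6 of 0.132, and with limma 1 of the 7 was called. The Pdia6 call was lost without any 1 replicate (adjusted p from 0.1 to 0.283) and without the replicate block (0.0802), and that of Hspa5 without replicate 1 or 2 (0.195 and 0.0588). Between Day03 and Day04 alone, Hsp90b1 (-0.82 ± 0.18, adjusted p = 0.000284) and Calr (-0.94 ± 0.20, adjusted p = 0.000289) were called lower (2 of 7, against 6.64% of tested genes).

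On Day04 and Day05, the same 5 genes that fell on Day01 were called lower than on Day00 (5 of 7 on each day, against 10.4% and 15% of tested genes). On Day04, calls were lost for Hspa5 without replicate 1 or 2 (adjusted p = 0.0510 and 0.155) and without the replicate block (0.0760), for Calr without replicate 1 (0.0849) and for Pdia3 without replicate 3 (0.0605). On Day05, calls were lost for Hspa5 without replicate 2 or 3 (0.191 and 0.101) and without the replicate block (0.106), for Pdia6 without replicate 2 or 3 (0.0586 and 0.298) and without the replicate block (0.0660), and for Hsp90b1 without replicate 1 (0.0519). On Day06, 6 of 7 were, against 11.5% of tested genes. Hspa5 stood at 430, 578 and 505 CPM on Day06 (log2 fold change -1.12 ± 0.20, adjusted p = 1.21e-06) and Hsp90b1 at 608, 777 and 729 CPM (-1.09 ± 0.19, adjusted p = 7.65e-07). Calr had 356, 325 and 443 CPM (-1.13 ± 0.22, adjusted p = 1.87e-05). Pdia6, at 178, 72.3 and 164 CPM, was 3.59-fold lower than on Day00 (log2 fold change -1.85 ± 0.30, adjusted p = 8.49e-08). Pdia3 had 594, 470 and 532 CPM (-0.77 ± 0.21, adjusted p = 0.00316). In these 5 genes all Day06 libraries lay below all Day00 libraries, which was so for 16.4% of tested genes. Canx was called lower with 727, 470 and 709 CPM against 1026, 699 and 1026 CPM on Day00 (-0.52 ± 0.20, adjusted p = 0.0425), and the days overlapped. P4hb overlapped too, at 134, 145 and 116 CPM against 205, 106 and 199 CPM (-0.47 ± 0.42, adjusted p = 0.466). The Canx call was lost without any 1 replicate (adjusted p from 0.154 to 0.204), without the replicate block (0.170) and under scaling to total counts (0.0835), and the Pdia3 call without replicate 2 or 3 (0.0867 and 0.135). Limma called neither of them (adjusted p = 0.348 for Canx and 0.187 for Pdia3). Pdia4 had 3, 1 and 4 counts on Day06.

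Across the 7 days as a whole, Calr (adjusted p = 2.47e-12), Hsp90b1 (1.95e-09), Pdia6 (4.93e-08), Hspa5 (4.33e-06) and Pdia3 (6.08e-05) changed, and Canx (0.142) and P4hb (0.217) were not called. This test of any change called 42.5% of tested genes, so that 5 of 7 is to be read against that share. The median log2 fold change of the 7 genes was -0.997 on Day01, -0.05 on Day03 and -1.09 on Day06, beside -0.01, 0.01 and 0.05 over all tested genes. The 5 tested genes with an ERSE had a median of -1.12 on Day06 and P4hb and Pdia3, without it, one of -0.62, while on Day01 the medians were -0.997 and -0.96, on Day03 -0.05 and -0.23, and in siWdr5 against nt 0.46 and 0.75. The order of the medians was thus not the same in all comparisons, and only 2 tested genes lacked the element. Of the other genes with the element, Dnajc3 and Hnrnpa3 were tested, and their log2 fold changes on Day06 were -1.09 ± 0.38 (adjusted p = 0.0222) and 0.13 ± 0.34 (adjusted p = 0.835).

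Other measures moved over these days. The summed fibroblast markers were 6630 CPM on Day00, 3507 on Day01, 3726 on Day03 and 2778 on Day06 (means of 3 libraries), with 4 of 6 tested markers called lower on Day01, 3 on Day03 and 4 on Day06. The median log2 fold change of the 6 tested fibroblast markers against Day00 was -1.18 on Day01, -0.64 on Day02, -0.38 on Day03 and -1.27 on Day06, so that by this median they also came closer to Day00 on Day03, while their summed level on Day03 stayed near that of Day01. The summed macrophage and blood markers were lower after Day00 and higher on Day03 than on the days around it, with means of 166 CPM on Day00, 54.3 on Day01, 49.7 on Day02, 91.1 on Day03, 59.5 on Day04, 40.9 on Day05 and 44.8 on Day06. Their 1 tested marker had log2 fold changes against Day00 of -2.60 on Day01, -0.80 on Day03 and -1.87 on Day06. The summed epithelial markers had means of 22.2 CPM on Day00, 15.0 on Day04, 91.0 on Day05 and 177 on Day06, and each Day06 library (74.2 to 253 CPM) lay above each Day00 library (20.5 to 24.8 CPM). Of the 8 markers, 6 were at 0 on Day00 and 1, Cldn3, on Day06. The summed pluripotency markers had means of 9.82 CPM on Day00 and 31.4 CPM on Day06, when Nanog, Esrrb, Zfp42, Fut4 and Utf1 were at 0. The share of counts from mitochondrially encoded genes was 13.8 to 15.7% on Day00, 10.8 to 12.5% on Day01, 19.7 to 22.6% on Day03 and 16 to 16.6% on Day06. The part of these in the results was not tested.

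Other genes of the secretory pathway were counted in 9 lists, of which 50 genes were tested. On Day01, 10 of them fell and 0 rose, beside 6.8% of all tested genes that fell. On Day03, 3 fell and 0 rose, beside 5.81% that fell, which is near the share in the lists. On Day06, 9 fell, beside 11.5% of all tested genes, and 1 rose, beside 321 of 3013 (17 calls with RLE factors, 6 without the replicate block and 5 to 6 without 1 replicate). Among cochaperones and partners of BiP, 1 of 6 fell on Day06, Dnajc3, a cochaperone with J domain, from 226, 248 and 360 to 74.2, 136 and 163 CPM. The median of that list was -0.88. In the list for collagen folding and hydroxylation, 3 of 4 fell, with a median of -1.44. Sparc, a collagen-binding matrix protein, went from 3095, 3240 and 3448 to 968, 1030 and 1113 CPM (log2 fold change -1.66 ± 0.18, adjusted p = 6.04e-16). Plod2, a lysyl hydroxylase, fell by 1.46 ± 0.45 (adjusted p = 0.00927). Of the KDEL receptors and cargo receptors, 2 of 5 fell. These were Surf4 (-1.26 ± 0.26, adjusted p = 3.23e-05), a cargo receptor, and Tmed10 (-0.67 ± 0.25, adjusted p = 0.0391), a member of the p24 family.

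Of the genes that signal or respond in the unfolded protein response, 2 of 4 tested fell by Day06, Nupr1 (-2.24 ± 0.59, adjusted p = 0.00172) and Tmbim6 (-1.44 ± 0.52, adjusted p = 0.0309). The other 2 were not called, Atf4 at -0.16 ± 0.34 (adjusted p = 0.801) and Asns at 1.57 ± 0.64 (adjusted p = 0.0612). None of these 4 is one of the 3 sensors, which did not reach the count filter. Among prolyl isomerases Fkbp9 fell (-1.61 ± 0.56, adjusted p = 0.0248), while Ppic, with 0, 0 and 16.6 CPM on Day00 and 27.3, 59.4 and 90.4 CPM on Day06, rose (adjusted p = 0.0479). In the lists of other thiol oxidoreductases, of glycan processing, of the translocon and of ER-associated degradation, none of 3, 9, 9 and 8 tested genes was called on Day06. The cytosolic chaperones, set beside them for comparison, had 3 genes higher and 3 lower of 18, beside 321 higher and 347 lower of all 3013 tested, and a median of 0.01, and the counts are not read as a result about the list. Cct8, a subunit of the cytosolic chaperonin, rose by 0.70 ± 0.23 (adjusted p = 0.0128), and Hsp90aa1, the inducible cytosolic Hsp90, by 0.57 ± 0.14 (adjusted p = 0.00104). The stress-inducible Hsp70 gene Hspa1b went from 61.6, 63.5 and 232 CPM on Day00 to 0, 0 and 13.6 CPM on Day06 and was called lower (adjusted p = 5.99e-05). Dnaja1, a partner of Hsp70, fell by 1.25 ± 0.34 (adjusted p = 0.00304).

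**Figure D2:**
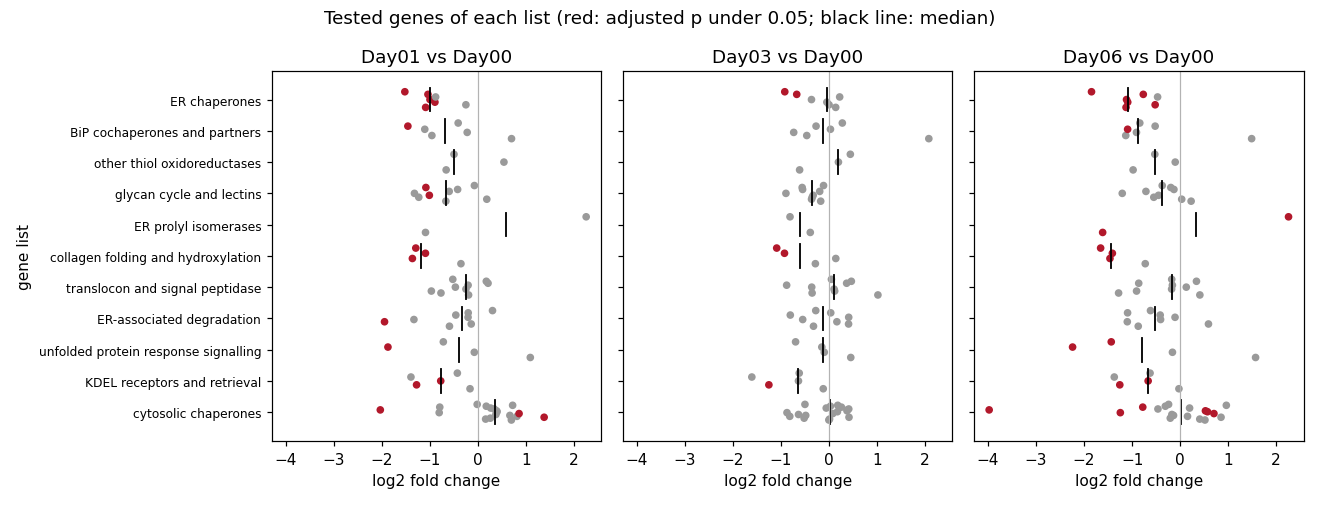
Log2 fold change against Day00 (x axis) of each tested gene of the ER lists and of the cytosolic chaperones (rows) on Day01, Day03 and Day06; red points have an adjusted p under 0.05 and black lines are medians. The ER chaperones had medians of -0.997, -0.05 and -1.09, and the cytosolic chaperones 0.36, 0.02 and 0.01.

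A second question was how the transfected controls stood against untransfected cells on day 6. By the study's account, transfected cells spent 1 more day with the transfection mix before induction. This added day and the transfection cannot be told apart here. What the Mock cells received is not given in the sources used here. Against untransfected Day06 cells, nt had Hsp90b1 higher (1 of 7, against 15.6% of tested genes called higher) and Calr and Pdia3 lower (2 of 7, against 11% called lower). Hsp90b1 stood at 866, 1047 and 1078 CPM in nt, above its Day06 libraries, with a log2 fold change of 0.51 ± 0.19 (adjusted p = 0.0369). Calr was at 250, 269 and 114 CPM (-0.99 ± 0.28, adjusted p = 0.00466), or 1.98-fold lower, and Pdia3 at 400, 254 and 319 CPM (-0.73 ± 0.24, adjusted p = 0.0177). Both lay below Day06 in every library. Hspa5 overlapped with Day06, with 616, 509 and 441 CPM in nt and a log2 fold change of 0.00 ± 0.22 (adjusted p = 0.997). Pdia6, at 217, 389 and 188 CPM, had 0.74 ± 0.33 (adjusted p = 0.0809).

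In Mock, Hsp90b1 was higher as well (1 of 7, against 17.4%), with a range of 858 to 1142 CPM and a log2 fold change of 0.49 ± 0.19 (adjusted p = 0.0406). Calr was lower (1 of 7, against 11.5%), with 137 to 259 CPM over 5 libraries (-0.80 ± 0.27, adjusted p = 0.0179). The nt and Mock comparisons share the Day06 libraries, and their counts of called chaperones are not read as a result about the set. Between Mock and nt edgeR called none of the 7, and none had an unadjusted p under 0.05, while 1.56% of tested genes were called. DESeq2 and limma called none either. Scaled to total counts, 5 of 7 were called lower and none higher in Mock against Day06, where 841 of all 3013 tested genes were called lower and 297 higher, against 345 and 525 with TMM, and the median log2 fold change of all tested genes went from -0.145 to -0.58. In nt, 4 of 7 were then called lower and none higher, beside 644 lower and 204 higher of all tested genes (332 and 470 with TMM), with a median of -0.375 against -0.01. Limma called none in nt or in Mock against Day06. The Hsp90b1 calls depended on the scaling. Scaled to total counts its log2 fold change was 0.15 in nt (adjusted p = 0.582) and 0.05 in Mock (adjusted p = 0.847), and with RLE factors 0.37 and 0.38 (adjusted p = 0.134 and 0.107). Both were lost without any 1 replicate (adjusted p of 0.0685 to 0.238 in nt and 0.105 to 0.148 in Mock) and without the replicate block (0.111 and 0.102). Calr in nt was lost without replicate 3 (-0.40, adjusted p = 0.518), and in Mock without replicate 1 or 3 (adjusted p = 0.200 and 0.150). Pdia3 in nt was lost without replicate 1, 2 or 3 (adjusted p = 0.0531, 0.166 and 0.109) and without the replicate block (0.0562).

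The nt libraries also had fewer fibroblast marker counts than Day06, at 1520 to 1815 against 2422 to 3368 CPM. Their mitochondrial share was 22.8 to 26.3%, against 16 to 16.6% on Day06. Mock differed from Day06 the same way, with 1896 to 2392 CPM of fibroblast markers and a mitochondrial share of 22.9 to 28.6%. Summed pluripotency markers had means of 81.4 CPM in nt, 95.5 CPM in Mock and 31.4 CPM on Day06. The part of these in the nt and Mock results was not tested. Of the 50 tested genes of the secretory lists, 4 rose in nt, beside 15.6% of all tested genes, and 7 fell, beside 11%, and neither count is read as a result about the lists (6 calls without the replicate block, 6 without replicate 2 and 4 without replicate 3). Those that rose were Tmx3, a transmembrane thioredoxin (1.85 ± 0.44, adjusted p = 0.000557), the ER peroxiredoxin Prdx4 (1.46 ± 0.57, adjusted p = 0.0416), and Sec11a and Spcs1 of the signal peptidase complex (1.21 ± 0.35, adjusted p = 0.00482, and 1.15 ± 0.27, adjusted p = 0.00036). Among those that fell were Ddost and Rpn2 of the oligosaccharyltransferase (-1.56 ± 0.58, adjusted p = 0.0328, and -1.27 ± 0.43, adjusted p = 0.0178). Tmed10 (-1.24 ± 0.31, adjusted p = 0.00105), the KDEL receptor Kdelr1 (-1.05 ± 0.33, adjusted p = 0.0114), Sparc (-1.34 ± 0.22, adjusted p = 1.93e-07) and the ATPase Vcp (-1.05 ± 0.33, adjusted p = 0.0108) fell too.

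**Figure D3:**
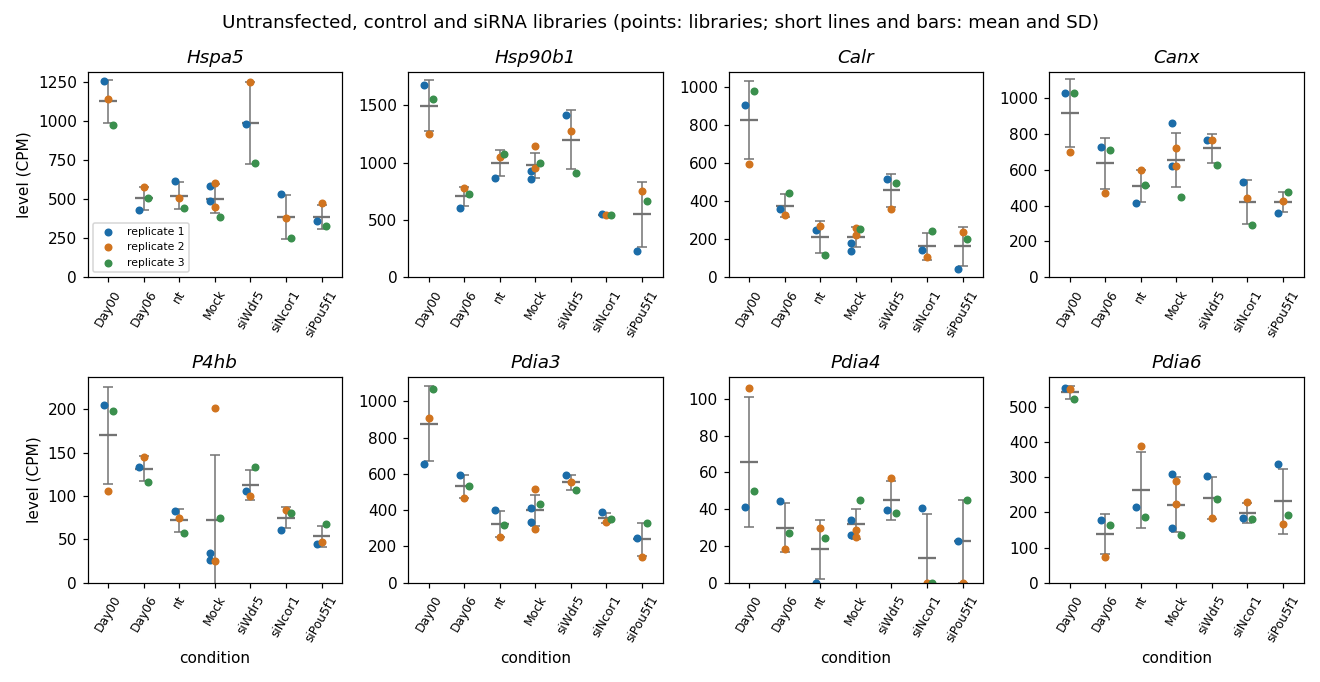
Levels in CPM (y axis, linear from 0) in untransfected Day00 and Day06 libraries, nt, Mock and the 3 siRNA conditions with a called gene (x axis); points are libraries, short lines the mean and bars the SD (n = 3, and for Mock 5 libraries from 3 replicates), cut at 0. Hspa5 and Calr in siWdr5 stood above all nt libraries, and Hsp90b1 in siNcor1 and siPou5f1 below them.

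In the screen the question was in which siRNA conditions the chaperones differed from nt. Of 231 pairs of a tested gene and an siRNA, 5 were called (2.16%), beside 2.57% of all genes over the 33 comparisons. They came from 3 siRNAs, and 30 pairs had an unadjusted p under 0.05. The share of all genes with such a p is not given here. Neither the 5 calls nor the 30 pairs are read as a result about the chaperones as a set. The number of calls was 8 with RLE factors, 10 with total counts, 8 with nt and Mock together as control, 0 with limma on the deposited log2 values, 2 without replicate 2 and 3 without replicate 3. WDR5 is a core subunit of histone H3 lysine 4 methyltransferase complexes, and siWdr5 accounted for 3 of the 5.

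In siWdr5, 3 of 7 rose, against 12.2% of tested genes that rose. Hspa5 was at 977, 1251 and 731 CPM in siWdr5 and at 616, 509 and 441 CPM in nt. The groups did not overlap, and the log2 fold change was 0.90 ± 0.20 (adjusted p = 0.000143), or 1.87-fold. Calr stood at 515, 355 and 494 CPM against 250, 269 and 114 CPM (1.23 ± 0.27, adjusted p = 0.000176). Pdia3 stood at 594, 554 and 513 CPM against 400, 254 and 319 CPM (0.78 ± 0.24, adjusted p = 0.00933). Canx (0.46 ± 0.21, adjusted p = 0.0906) and P4hb (0.72 ± 0.50, adjusted p = 0.274) were above nt in each replicate without a call. Hsp90b1 had 0.24 ± 0.18 (adjusted p = 0.322), and Pdia6, with 304, 185 and 237 CPM, had -0.05 ± 0.31 (adjusted p = 0.921). Pdia4 had 3, 4 and 4 counts in siWdr5 and 0, 2 and 3 in nt. The Hspa5 and Pdia3 calls were lost without replicate 2 (adjusted p = 0.0675 and 0.175), and that of Calr without replicate 3 (0.79, adjusted p = 0.104). Pdia3 was also lost when p-values were adjusted over the 33 comparisons together (adjusted p = 0.0611), and Calr with Calr-ps had 1.11 ± 0.26 (adjusted p = 0.000449).

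Fibroblast markers summed to 4490 to 5192 CPM in siWdr5 and to 1520 to 1815 CPM in nt, and 5 of 6 tested markers were called higher. Epithelial markers summed to 26.4 to 56.9 CPM in siWdr5 and to 106 to 149.9 CPM in nt, without overlap. Pluripotency markers summed to 9.49 to 42.6 CPM (mean 21.8) in siWdr5 and to 32.7 to 167 CPM (mean 81.4) in nt, and these overlapped. The part of these markers in the siWdr5 result was not tested. Of the 50 genes of the secretory lists, 7 rose, beside 12.2% of all tested genes, and 3 fell, beside 454 of 3013, and these too are given as counts only. Calr and Pdia3 in siWdr5 were near their untransfected Day06 levels of 375 ± 61.1 and 532 ± 61.8 CPM, whereas Hspa5, at a mean of 986 ± 260 CPM, lay above each of its Day06 libraries. The paper's projection onto its time course places siWdr5 between Day03 and Day04. On Day03 the means were 892 CPM for Hspa5, 917 for Calr and 551 for Pdia3, and on Day04 they were 715, 475 and 473 CPM. These last values were set side by side without a test, and the comparison of siWdr5 shares its nt libraries with that of nt against Day06.

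Hsp90b1 was the gene that fell. In siNcor1, with siRNAs against the corepressor NCoR1, it stood at 550, 544 and 541 CPM against 866, 1047 and 1078 CPM in nt (-0.89 ± 0.21, adjusted p = 0.00244), and it was the 1 of 7 called, against 1.03% of tested genes that fell. In siPou5f1, with siRNAs against Oct4, it stood at 225, 757 and 665 CPM (-0.83 ± 0.21, adjusted p = 0.00527), the 1 of 7 called, against 2.19%. Neither overlapped with nt. The siNcor1 call was lost without replicate 2 or 3 (adjusted p = 0.0545 and 0.202), and that of siPou5f1 without replicate 1 (adjusted p = 0.178), whose library had 10 counts of Hsp90b1 and 15.1% mitochondrial counts against 24.1% and 21.3% in the other siPou5f1 replicates, and when only the libraries of siPou5f1 and nt were fitted (adjusted p = 0.173). Hspa5 in siNcor1 had -0.50 ± 0.24 (adjusted p = 0.289) and in siPou5f1 -0.43 ± 0.25 (adjusted p = 0.361). Fibroblast markers summed to 1261 to 1896 CPM in siNcor1 and 901 to 1206 CPM in siPou5f1. Pluripotency markers summed to 0 to 23.7 CPM in siPou5f1, with 7 of 8 at 0, below the 32.7 to 167 CPM of nt, and to 20.0 to 61.2 CPM in siNcor1. The part of these markers and of the mitochondrial share in this was not tested.

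**Figure D4:**
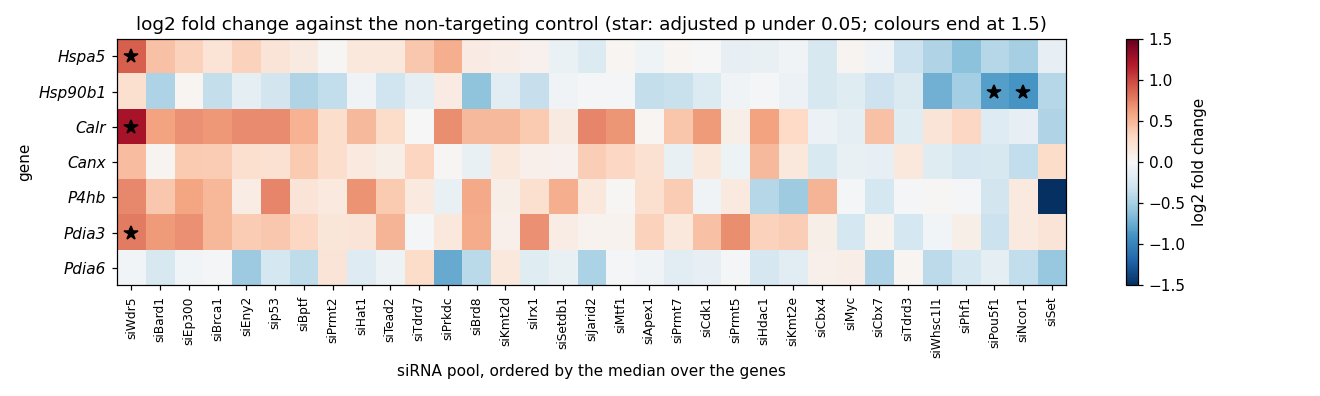
Log2 fold change against nt (colour) of the 7 tested genes (rows) in 33 siRNA conditions (columns, ordered by the median over the genes); stars mark an adjusted p under 0.05. The 5 stars are Hspa5, Calr and Pdia3 in siWdr5 and Hsp90b1 in siNcor1 and siPou5f1, and P4hb in siSet, at -1.84, lies past the end of the colour scale.

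Over all 33 siRNAs the genes differed in their spread around nt. Calr lay above nt in 27 of 33, with a median log2 fold change of 0.42, and Pdia3 in 28 of 33 with a median of 0.19. Hsp90b1 lay above nt in only 3 of 33 (median -0.24) and Pdia6 in 6 of 33 (median -0.16). The 33 values of a gene share the same 3 nt libraries, so a low or high nt level shifts them all. Hspa5 ranged from -0.62 in siPhf1, where it had its lowest mean of 358 ± 173 CPM, to 0.90 in siWdr5. The means of Hsp90b1 (1201 ± 260 CPM), Calr (455 ± 86.7 CPM) and Pdia3 (554 ± 40.9 CPM) were highest in siWdr5 too. Hsp90b1 had its lowest mean in siNcor1 (545 ± 5.04 CPM), Calr in siSet (136 ± 27.1 CPM) and Pdia3 in siPou5f1 (239 ± 92.7 CPM). Canx ran from 420 ± 56.8 CPM in siPou5f1 to 729 ± 189 CPM in siHdac1, and Pdia6 from 146 ± 11.9 CPM in siPrkdc to 296 ± 126 CPM in siTdrd7. P4hb ran from 19.7 ± 34.2 CPM in siSet to 122 ± 77.8 CPM in siSetdb1, and none of its 33 comparisons had an unadjusted p under 0.05. Pdia4 was highest in siWdr5 (44.8 ± 10.5 CPM) and had 0 counts in all libraries of siTead2 and of siPrmt5.

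Over the 42 condition means the 21 pairs of tested chaperones correlated with a median Pearson r of 0.58, from 0.20 to 0.75. Over the 35 transfected conditions alone the median was 0.38, from -0.17 to 0.62. The correlation with the mean of the other 6 was highest for Calr (0.83) and Hspa5 (0.82) and lowest for Pdia6 (0.36). These values are descriptions, since the conditions share sequenced pools, scaling and depth. Of 2810 other tested genes with a mean of at least 50 CPM, those closest to the mean of the 7 chaperones were Filip1l (r = 0.90), the Wnt secretion receptor gene Wls (0.87), the mesenchymal cadherin gene Cdh11 (0.86), the tropomyosin gene Tpm1 (0.85) and Phldb2 (0.85). None of these 5 was in the lists of ER genes. Filip1l went from a mean of 655 CPM on Day00 to 53.5 CPM on Day06 and Wls from 722 to 230 CPM.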

How the data were processed

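As its methods state, reads were mapped by the authors to mm10 with Bowtie2, and they counted transcripts with the CEL-Seq2 pipeline and GENCODE vM13, correcting for molecular identifiers. Counts were used as deposited, without normalization. A second deposited table holds log2 CPM that the authors normalized and corrected for batch, and it served 1 alternative only. The 2 libraries under 10000 counts were left out, which are those absent from the log2 table. The chaperones and lists were chosen with earlier results of these data known.

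Counts were tested with edgeR 4.0.16 in R 4.3.3 (quasi-likelihood test, TMM scaling, filterByExpr by condition, a term per condition and a replicate block, 83 residual degrees of freedom), and p-values were adjusted by Benjamini-Hochberg over all genes tested in a comparison, with a threshold of 0.05. DESeq2 1.42.0 and limma 3.58.1 served as alternatives, beside other scalings, no filter, no block, other libraries and each replicate left out. Each standard error is the log2 fold change over the square root of its F value. Deviations from the condition mean correlated at a median of 0.08 for libraries of the same replicate number and -0.0527 for different numbers. The scripts were tested on simulated data. Library pairs of a condition differed beyond sampling noise, with at least 1.30 chi-square per degree of freedom.

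Genes outside the chaperones were named by rule. From each list these were up to 2 called genes per direction with the largest change and a mean of at least 50 CPM in either condition, for Day06 against Day00 and nt against Day06. All siRNAs with a called chaperone and those of the highest and lowest means were named, with the 5 genes of most similar pattern. Pdia4 values rest on few counts.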

Additional observations from a re-analysis of the deposited data

Results flagged for a closer look

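P4hb stood apart in 1 of the 5 Mock libraries, the first of replicate 2, with 201.8 CPM. The other Mock libraries had 25.8, 34.3, 24.8 and 74.6 CPM. The gap to the nearest library was 0.719 of the range, against a critical value of 0.710 for 5 samples. The value rests on 7 counts. The 5 libraries come from 3 replicates, with 2 libraries each in replicates 1 and 2, so they are not 5 independent samples and the critical value holds only as a guide. Mock was the one condition with enough libraries for this test, which was made for 8 genes and by chance singles out about 1 in 20 groups.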

How the results depend on the processing

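Of 494 values recomputed for calls of single chaperones, 367 remained called and 0 changed direction. Without the filter, 30778 genes were tested and 24 of 43 calls were lost, and limma on the deposited log2 values (10568 genes) lost 27. RLE factors moved the median of all genes by up to 0.211 and total counts by up to 0.434 on the log2 scale. Counts of called chaperones moved as follows. Day01 against Day00 (5) gave 1 with limma. Day02 (3) gave 5 with RLE factors and with DESeq2, 1 with no filter and with limma, and 0 against the day before. Day03 (2) gave 0 with no filter, with limma, with no replicate block and against the day before, and 0 to 1 without 1 replicate. Day04 (5) gave 1 with no filter, 2 against the day before and 3 without replicate 1. Day05 (5) gave 1 with no filter, 3 with no replicate block, 0 against the day before and 3 without replicate 2 or 3. Day06 (6) gave 1 against the day before. Day03 against Day01 (3) gave 1 with total counts and 0 with limma, and Day06 against Day03 (4) gave 2 with total counts and with no filter, 1 with limma and 2 without replicate 1 or 2. For nt against Day06 (3) the count was 0 with no filter and with limma, 1 with no replicate block and 0 to 1 without 1 replicate. For Mock against Day06 (2) it was 5 with total counts, 1 with RLE factors, DESeq2, no replicate block, only the libraries compared and the 2 left-out libraries added, 0 with no filter and with limma, and 0 to 1 without 1 replicate. For the 33 siRNAs (5) it was 8 with RLE factors, DESeq2 and nt and Mock as control, 10 with total counts, 0 with limma and 2 to 5 without 1 replicate. In the secretory lists the Day06 count (10) was 17 with RLE factors, 6 with no replicate block and 5 to 6 without 1 replicate, and the nt count (11) was 3 with no filter, 2 with limma, 6 with no replicate block and 4 to 11 without 1 replicate. The median r of chaperone pairs (0.579) was 0.694 with total counts and 0.454 to 0.533 without 1 replicate. The cause of these changes was not tested. The days compared with the day before, Day03 with Day01, Day06 with Day03, and Calr with Calr-ps were added after seeing the data. Depth limits P4hb and Pdia4 most.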

Other observations

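Cytosolic chaperones were also compared between untransfected Day06 cells and nt. Hsp90aa1, the inducible cytosolic Hsp90, stood at 3709 to 4121 CPM on Day06 and at 9362 to 11190 CPM in nt (log2 fold change 1.35 ± 0.14, adjusted p = 3.5e-17, edgeR). Of 18 tested cytosolic chaperones 3 rose, beside 15.6% of all tested genes, and 3 fell, beside 11%, with a median of -0.08, and the counts are not read as a result about the list. Within the chaperonin that folds actin and tubulin, Cct5 rose (0.99 ± 0.27, adjusted p = 0.00366) and Cct3 fell (-1.02 ± 0.31, adjusted p = 0.00825). Stip1, which links Hsp70 to Hsp90, fell by 1.35 ± 0.45 (adjusted p = 0.0161).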
